A study of Mus musculus with 30 samples.

Results

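BAF (SWI/SNF) complexes are ATP-driven machines that slide or evict nucleosomes. The motor is either Smarca4 (Brg1) or its paralog Smarca2 (Brm). Smarcc1 (Baf155) and Smarcc2 (Baf170) form the scaffold on which the other subunits assemble, and Smarcb1 (Baf47) contacts the nucleosome and is missing from the non-canonical form. In neural tissue the paralogous scaffold subunits are known to be exchanged as progenitors mature. The rows listed under the symbols of these 5 genes were read in RNA of the eye region of E12 mouse embryos, out of 56484 rows in all. They were chosen by name, as the core subunits of the complex the study is about, and all 5 were among the 8337 rows with enough counts to be tested.

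The 30 libraries came from embryos whose genotype label is Control, with no allele or treatment named. Geo-seq lifts marked areas from frozen sections with a laser and amplifies their cDNA before sequencing, so the position of each library is known. The presumptive retinal pigmented epithelium (pRPE, 14 libraries) was divided into dorsal and ventral, distal and proximal regions, and the optic stalk (OS, 16 libraries) into dorsal and ventral, distal, middle and proximal regions. Each of the 10 regions had 2 to 4 libraries, 14 in batch A and 16 in batch B. The methods describe fewer control embryos than libraries, so libraries shared embryos, and the GEO labels do not say which. All p-values below are taken over libraries as if independent, and shared embryos can make them too small or too large. In such bulk samples, fewer cells of a type and less RNA per cell cannot be told apart.

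Total counts ranged from 1421918 to 6041021 per library, with 30.4% to 55.4% on mitochondrial rows. The number of rows with a count ranged from 1730 to 9886. Marker rows matched the tissue labels only in part. Their levels are given as CPM, the count of a row scaled to one common library total. Of 12 pigment epithelium marker rows, Dct, Tyr, Tyrp1 and Otx1 had no count in any library, and their summed level was 173 to 2407 CPM in pRPE and 0 to 2227 CPM in OS. The 6 optic stalk marker rows summed to 0.254 to 36.2 CPM in pRPE and to 0 to 775 CPM in OS. The neural retina markers reached 88.7 CPM in pRPE and 34.1 CPM in OS, with Six6 and Pax6 at 0. The mesenchyme markers reached 1034 and 1123 CPM, the blood markers 60.9 and 56.8 CPM, the endothelial markers 161 and 750 CPM and the neuronal markers 114 and 535 CPM. The part of other cell types in the results below was not tested.

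The names of the rows were checked against their counts, because rows of widely expressed genes were empty. Of 737 rows of widely expressed gene families (ribosomal proteins, translation factors, respiratory chain subunits and the like), 241 rows, or 32.7%, had no count in any library. Among all 56484 rows, 31241 had none. Of the row names, 7401 were not in GENCODE M21, an annotation of GRCm38, the genome to which the reads were aligned. Around Smarcc1, Smarcc2, Smarca4 and Smarcb1, rows at higher coordinates than an empty or nearly empty gene held high counts. On chromosome 10, Atp5b (128083273-128090391), an ATP synthase subunit, was listed with 44 counts in total over all libraries. Timeless and Apon, which lie at higher coordinates, were listed with 141321 and 102370. In the same stretch the pigment gene Pmel had 123 counts and Gdf11 had 378423, while the ribosomal protein gene Rps26 had 92 and Gm47093 had 77688.

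A single displacement can set such rows over such genes. Moving all row positions toward lower coordinates by 163.7 to 169.7 kb placed Timeless, Apon, Gdf11 and Gm47093 over Atp5b, Pmel and Rps26 at once. Near Smarcb1, also on chromosome 10, Eef2 (a translation elongation factor) had 17 counts and Hmg20b had 156267. The surface glycoprotein gene Bsg had 574 and Plppr3 had 86796, and Ddt had 416 and Chchd10 had 11864. These 3 pairs met at a displacement of 163.6 to 166.5 kb. Near Smarca4 on chromosome 9, the chaperone gene Cdc37 had 594 counts, while Keap1 had 11464 and Gm16754 had 6068, and these met at 79.7 to 99.8 kb. Near Smarcc1, Uqcrc1 (a respiratory chain subunit) had no count and Plxnb1 had 120225, which met at 145.8 to 183.3 kb. The pairs were chosen after their counts were seen.

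The same was measured without choosing pairs, over the 15 widely expressed genes nearest each member. All row positions of the chromosome were moved in steps of 250 bases over 400 kb to either side, and each gene took the highest count, as log2(1 + total count), of any row whose exons then overlapped its own by at least 20 bases. Near Smarca2 the mean over the 15 genes was 6.34 with no displacement and 11.78 at 18.75 kb toward lower coordinates, where the median over all displacements was 4.29. Near Smarca4 it was 7.43 with no displacement and 11.01 at 78.75 kb. Near Smarcc2 it was 5.87 with no displacement, its median was 4.34, and it was highest, at 9.0, at 172.25 kb. The highest means near Smarca4 and Smarcc2 lay outside the intervals in which the pairs met (79.7 to 99.8 kb and 163.7 to 169.7 kb). Near Smarcc1 and Smarcb1 no displacement stood out, with 4.88 and 7.82 at best against 3.88 and 6.16 with none. The highest mean over many displacements exceeds that at a single one by construction. With the genes of the pairs left out, the median of the mean over the displacements in the pairs' own interval was 6.88 near Smarca4 against 7.57 with no displacement, and 6.68 against 5.80 near Smarcc2. It was 4.78 against 6.51 near Smarcb1 and 2.24 against 3.88 near Smarcc1. The highest mean in the interval was 10.04 near Smarca4, which 0.156% of all displacements exceeded, and 6.96 near Smarcc2, which 1.37% exceeded. Near Smarcb1 and Smarcc1 it was 6.08 and 3.57, with 10.6% and 5.28% of displacements above it.

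At the displacements of the pairs, the rows of Smarcc1, Smarcc2, Smarca4 and Smarcb1 overlapped exons of other genes. Only protein-coding genes lying under the row at both ends of the interval were sought. How often other rows meet a gene in this way was not measured, so the overlaps are a description. The exons of Smarcc2 (chromosome 10, 128459248-128490482, plus strand) overlapped exons of the deadenylase gene Pan2 at 24 of 24 displacements tried in the interval and those of Il23a at 21. Those of Smarcb1 (chromosome 10, 75896769-75921617, minus strand) overlapped exons of Cabin1 at 12 of 12. Those of Smarca4 (chromosome 9, 21616169-21704230, plus strand) overlapped exons of the arginine methyltransferase gene Carm1 at 79 of 81, of Yipf2 at 59, of AB124611 at 42 and of Timm29 at 41, and at 12.3% of them still overlapped exons of Smarca4 itself. Those of Smarcc1 (chromosome 9, 110117708-110240178, plus strand) overlapped exons of Map4, a microtubule-binding protein gene, at 151 of 151. Under their own symbols, the total counts were 6982 for Map4, 1526 for Pan2, 718 for Il23a and 1059 for Cabin1. They were 10579 for Timm29, 26 for AB124611 and 0 for Carm1 and Yipf2. Smarca2 lies on chromosome 19 (26605050-26778322, plus strand), and no interval from pairs was sought there. All coordinates are GRCm38. At their own positions, exons of Smarcc1 overlap those of Dhx30, exons of Smarca2 those of 4931403E22Rik and exons of Smarca4 those of Gm27373, and the library kit as described marks no strand. The files do not settle whose transcripts the 5 rows counted. Each value below is the count listed under a symbol, and none is given as a level of the subunit itself.

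Smarcc1 and Smarcc2 are the paralogous scaffold subunits. The Smarcc2 row had a count in 29 of 30 libraries and ranged from 0 to 624.5 CPM with a mean of 216 ± 165 (SD, n = 30). It ran from 58.6 through a median of 242 to 581 CPM in pRPE, and from 0 through 118 to 624.5 CPM in OS. The groups overlapped over nearly their whole range, and the 1 library without a count, OS ventral distal replicate 2, was also the one with the fewest rows counted (1730). Regional means lay between 79.9 ± 69.3 CPM in ventral distal OS (SD, n = 3) and 371 ± 358 CPM in dorsal proximal OS (n = 2), where the replicates read 624.5 and 118 CPM. Neighbours in that order did not differ beyond this spread.

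The Smarcc1 row had a count in 14 of 30 libraries, 7 of 14 in pRPE and 7 of 16 in OS. It ranged from 0 through a median of 2.20 to 137 CPM in pRPE and from 0 through 0 to 92.1 CPM in OS. All 3 libraries of ventral proximal pRPE had a count (8.35, 9.48 and 137 CPM), while none of the 3 of dorsal distal pRPE and none of the 2 of dorsal proximal OS had one. Among the 15 libraries with the most rows counted, 12 had a Smarcc1 count, against 2 of the other 15, whereas the Smarcc2 row was counted in 15 and 14. In every library with a Smarcc1 count the Smarcc2 row was also counted (14 of 14).

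Smarca4 and Smarca2 are the alternative ATPases. The Smarca4 row had a count in 14 of 14 pRPE libraries and 12 of 16 OS libraries. It ran from 37.9 through 82.1 to 162 CPM in pRPE and from 0 through 54.9 to 217 CPM in OS. Its region with the highest mean was dorsal distal OS, with 154, 217 and 181 CPM, a mean of 184 ± 31.8 (SD, n = 3). Ventral distal OS read 0, 0 and 135 CPM. Within OS the row averaged 109 ± 78.8 CPM in the 7 dorsal libraries and 41.2 ± 45.4 CPM in the 9 ventral libraries, and these ranges overlapped. The 4 libraries without a count had 1730 to 3029 rows counted.

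The Smarca2 row had a count in 22 of 30 libraries, 11 in each tissue. It ran from 0 through 19.3 to 90.9 CPM in pRPE and from 0 through 10.1 to 881 CPM in OS. The highest value, 2090 counts in OS ventral middle replicate 3, stood alone, since the other libraries of that region read 23.2, 44.4 and 9.24 CPM. Without it no library of either tissue was above 92.7 CPM. In batch A all 7 pRPE libraries and 3 of 7 OS libraries had a count, and in batch B 4 of 7 and 8 of 9. All 15 libraries with the most rows counted had a Smarca2 count, against 7 of the other 15.

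Smarcb1 is the core subunit common to the canonical complexes. Its row had a count in 5 of 30 libraries, all of them pRPE. These read 21.8 and 28.7 CPM in dorsal proximal pRPE, 206 and 7.72 CPM in ventral distal pRPE and 7.45 CPM in ventral proximal pRPE. The other 9 pRPE libraries and all 16 OS libraries read 0, and 0 of 16 allows a share of up to 18.75% of OS libraries with a count. That limit takes the 16 OS libraries as independent, although libraries shared embryos. Amplified reads are not independent molecules either. The row was tested at all only because of its pRPE libraries, and 1 library, pRPE ventral distal replicate 1, held the value of 206 CPM, so the levels are given as a description and no fold is drawn from them. Batch A held 4 of these 5 libraries and batch B held 1. The pRPE libraries with a count had a median of 5403 rows counted and those without 5292.

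**Figure D1:**
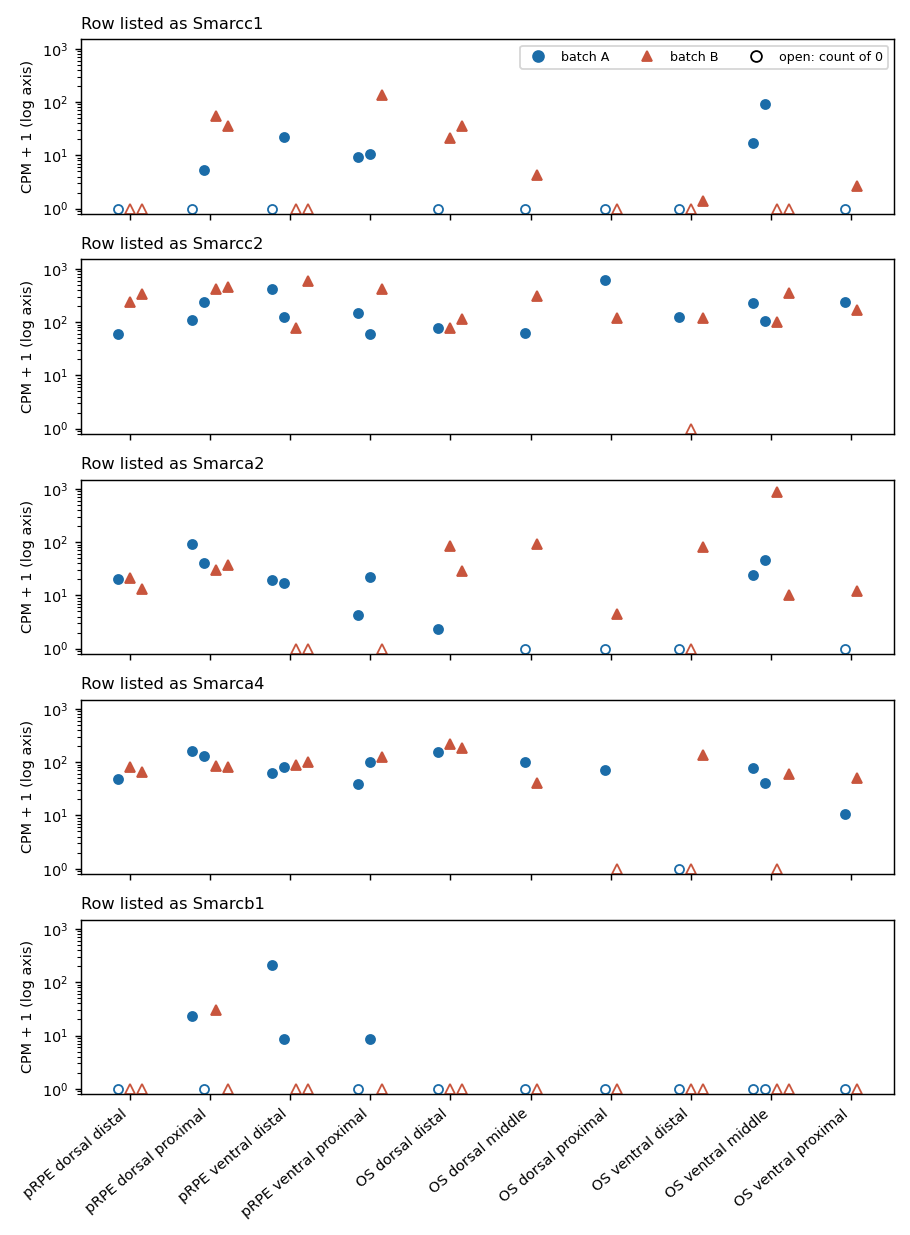
Level of each row in CPM + 1 on a log axis for every library, by region. Circles are batch A, triangles batch B and open symbols a count of 0. The Smarcc2 row is counted in 29 of 30 libraries, the Smarcb1 row in 5, all pRPE, and the Smarca2 row has 1 library at 881 CPM.

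The number of libraries with a count was compared between tissues, between dorsal and ventral and between batches for every tested row. The Smarcb1 row entered the tested rows only through pRPE libraries, so its pRPE against OS tests, here and in edgeR and DESeq2, were conditioned on the group in which it is high and support no difference. Its two-sided Fisher's exact test gave an adjusted p of 0.335 over 8337 rows. No member passed the adjusted threshold in any of these 3 comparisons, nor did any other tested row (percent called 0 in each). The unadjusted p was under 0.05 for 905 rows between tissues, 875 between dorsal and ventral and 148 between batches. These p-values, too, take libraries that shared embryos as independent.

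Levels were then compared in edgeR over all 30 libraries, again taken as independent. Middle regions were sampled only in OS and had their own term. The pRPE against OS difference is therefore between pRPE and distal and proximal OS. Between pRPE and OS, 0 of 5 members were called, where 0.036% of all tested rows were. The unadjusted p was under 0.05 for 1 member, Smarcb1, and for 20.6% of all tested rows. The adjusted p of Smarcb1 in edgeR was 0.0717, and with the OS libraries at 0 its fitted fold change is no bound. The difference was 0.83 ± 0.74 (log2 fold change ± SE, edgeR adjusted p = 0.639) for Smarcc2 and 0.48 ± 1.15 (adjusted p = 0.908) for Smarca4. It was 2.37 ± 3.45 (adjusted p = 0.826) for Smarcc1 and 1.47 ± 2.43 (adjusted p = 0.851) for Smarca2. The SE of Smarca4, Smarcc1 and Smarca2 exceed their differences. The mean CPM of the Smarca2 row, over all OS regions, was lower in pRPE than in OS (22.0 against 78.6). The OS middle library at 881 CPM widened that gap, and the medians ran the other way (19.3 against 10.1 CPM). The median over the 5 rows was 1.47, the Smarca2 value, with the conditioned Smarcb1 row counted. It is therefore no measure against the median of 0.80 over all tested rows. Without 1 library the value ran from 0.08 (OS ventral middle replicate 3 left out) to 2.29 (pRPE ventral distal replicate 4 left out) for Smarca2, and from 0.21 (OS ventral proximal replicate 1) to 0.75 (OS ventral distal replicate 3) for Smarca4. For Smarcc1 it ran from -3.19 (pRPE ventral distal replicate 2) to 3.26 (pRPE dorsal distal replicate 2). DESeq2 called 14.5% of all tested rows and 1 member, which was the conditioned Smarcb1 row.

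Between dorsal and ventral libraries 0 of 5 members were called in edgeR, where 5.96% of all tested rows were, and 0 had an unadjusted p under 0.05 (21.7% of all tested rows). The largest positive difference among members was 0.97 ± 1.38 on the log2 scale for Smarca2 (edgeR adjusted p = 0.822), followed by 0.95 ± 0.93 for Smarca4 (adjusted p = 0.683). The mean CPM of the Smarca2 row ran the other way, 32.6 in dorsal against 69.3 in ventral libraries, the latter through the library at 881 CPM. The median over the 5 rows was 0.24, against 0.94 over all tested rows. Within OS, dorsal against ventral, 0 of 5 were called (0.012% of all tested rows), also with 0 at an unadjusted p under 0.05 (2168 of 8337 tested rows). The log2 difference there was 1.56 ± 1.20 for Smarca4 (edgeR adjusted p = 0.513), -1.84 ± 1.74 for Smarca2 (adjusted p = 0.649) and -2.45 ± 3.26 for Smarcc1 (adjusted p = 0.806). The last 2 turned sign without 1 library, to 0.77 for Smarca2 without OS ventral middle replicate 3 and to 0.11 for Smarcc1 without OS ventral middle replicate 2. These p-values again take libraries sharing an embryo as independent. DESeq2 called 0 members between dorsal and ventral libraries and 1 within OS, Smarcb1, although that row had no count in any OS library (it gave Smarca2 no adjusted p there). It called 13.9% and 9.39% of all tested rows in these comparisons.

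Between proximal and distal libraries 0 of 5 members were called (0% of all tested rows), and between batches 0 of 5 (0.12%). In both, 0 members had an unadjusted p under 0.05 in edgeR (10.8% and 12.5% of all tested rows), and DESeq2 called 0 (6.62% and 8.0%). The Smarcc2 row had the largest proximal difference, 0.84 ± 0.71 on the log2 scale (edgeR adjusted p = 0.865). These p-values do not allow for shared embryos, and none of these tests shows that levels were alike, since the intervals are wide.

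The balance of paralogous rows was taken as the log2 ratio of counts with 0.5 added, over libraries with a count of either. The ratio of Smarcc1 to Smarcc2 averaged -6.65 ± 3.64 in pRPE (SD, n = 14) and -7.04 ± 3.54 in OS (n = 15), a difference of 0.39 (permutation p = 0.774, adjusted over 4 tests 0.875). Dorsal minus ventral it differed by -0.63 (permutation p = 0.635, adjusted 0.875). The ratio of Smarca4 to Smarca2 averaged 3.41 ± 3.16 in pRPE (n = 14) and 1.65 ± 5.37 in OS (n = 14), a difference of 1.76 (permutation p = 0.307, adjusted 0.875), and dorsal minus ventral differed by -0.28 (permutation p = 0.875). None of these differences exceeded the spread between libraries, and their p-values do not allow for shared embryos. Single libraries moved them by more than 1.5 times. The tissue difference of Smarcc1 to Smarcc2 ran from 0.00027 without pRPE ventral proximal replicate 3 to 0.88 without OS ventral middle replicate 2, and its dorsal minus ventral difference from -1.05 without OS dorsal distal replicate 3 to -0.18 without OS ventral middle replicate 2. For Smarca4 to Smarca2 the tissue difference ran from 0.71 without OS ventral middle replicate 3 to 2.33 without OS dorsal middle replicate 1. Its dorsal minus ventral difference ran from -1.41 without OS ventral middle replicate 3 to 0.26 without pRPE ventral proximal replicate 3, and 4 libraries, left out singly, turned its sign.

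Within batches the Smarca4 to Smarca2 ratio turned. It was 3.23 lower in pRPE than in OS in batch A on the log2 scale (difference -3.23, exact permutation p = 0.0513) and 5.88 higher in batch B (exact permutation p = 0.0255). The difference between the batches was 9.11, with a permutation p of 0.00126 when tissue labels were permuted within each batch, or 0.00504 adjusted over the 4 ratios tested. Neither p allows for libraries that share embryos. The size of these values rests on the 0.5 added to counts of 0. The Smarca2 row was at 0 in 3 of the 6 OS libraries of batch A and 3 of the 7 pRPE libraries of batch B used here, and the Smarca4 row was at 0 in 2 of the 8 OS libraries of batch B, OS ventral middle replicate 3 and OS dorsal proximal replicate 2, where Smarca2 had 2090 and 9 counts. With 1 added the differences were -2.74 in batch A (exact permutation p = 0.0618) and 5.21 in batch B (exact permutation p = 0.0255), and they lay 7.95 apart (permutation p = 0.00157). For Smarcc1 to Smarcc2 the tissue differences of batches A and B were 1.12 and -0.29 (exact permutation p = 0.571 and 0.883). The dorsal minus ventral difference of that ratio came to -3.63 in batch A but 2.09 in batch B (exact permutation p = 0.0553 and 0.268), and for Smarca4 to Smarca2 it was 2.28 and -2.28 (exact permutation p = 0.178 and 0.451). Batch B minus batch A, these lay 5.7 and -4.56 apart (permutation p = 0.0309 and 0.166, adjusted 0.0618 and 0.221). The tissue differences of Smarcc1 to Smarcc2 lay -1.42 apart (permutation p = 0.6).

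The other subunits of BAF complexes were read by the same measure. Of 28 names listed, 26 were rows of the table, 11 were tested and 7 had no count in any library. These were Phf10, Smarcd1, Smarce1, Ss18, Ss18l1, Bcl11a and Actb, the last a core part of nearly every complex. Only 5 rows were counted in at least 15 libraries. Smarcd2 was counted in 29 libraries (365 ± 239 CPM, SD, n = 30), Bcl7a in 27 (279 ± 215 CPM) and Smarcd3 in 26 (97.9 ± 69.6 CPM). Bcl7c was counted in 17 (11.7 ± 13.8 CPM) and Arid1a, a subunit of canonical BAF, in 15 (40.7 ± 86.4 CPM). None of the 11 tested rows was called in edgeR in any of the 5 comparisons. The shares of all tested rows called were 0.036% between pRPE and OS, 5.96% between dorsal and ventral, 0% between proximal and distal, 0.12% between batches and 0.012% between dorsal and ventral OS, so a count of 0 among so few rows says little.

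**Figure D2:**
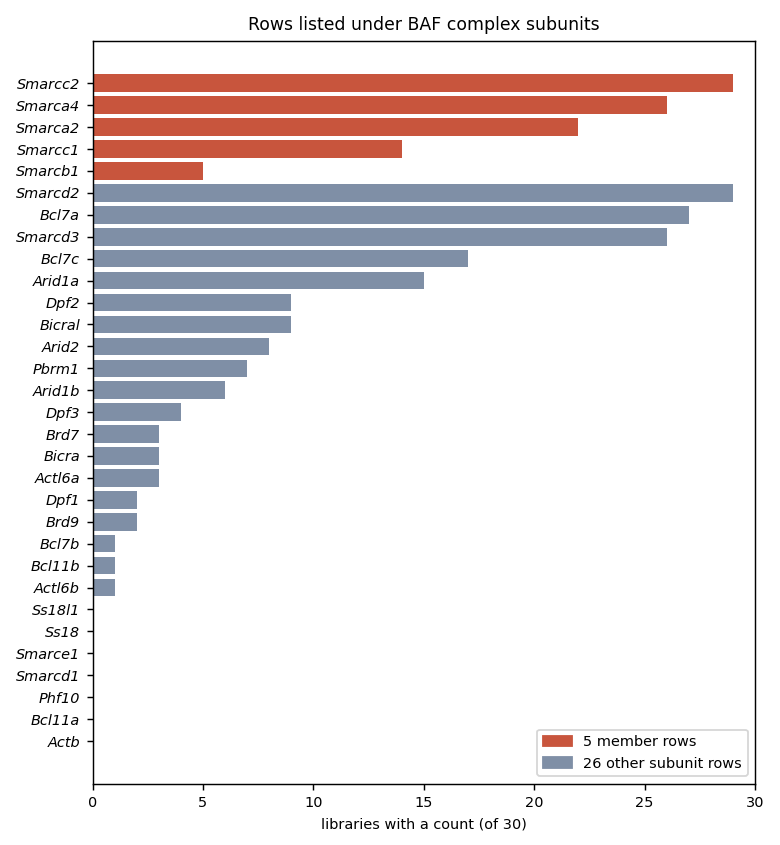
Number of libraries with a count, of 30, for each row listed under a BAF complex subunit. The 5 member rows are in red and 26 other subunit rows in grey. Counts range from 29 libraries for Smarcc2 and Smarcd2 to 0 for 7 rows, Actb among them.

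Rows of Polycomb subunits, the complexes that BAF opposes, gave 16 of 30 tested and 8 without any count, and other ATP-dependent remodellers gave 14 of 31 tested and 3 without any count. Neither list had a row called in edgeR in any of the 5 comparisons, beside the same shares of all tested rows (0.036%, 5.96%, 0%, 0.12% and 0.012%). Their median log2 differences between pRPE and OS were 0.43 and 0.42, and that of the other BAF rows 1.27, beside 0.80 over all tested rows.

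The rows most like each member over the 30 libraries were found by Spearman correlation of log2(CPM + 1) among 4443 other nuclear rows counted in at least 10 libraries. For Smarcc2 these were Igdcc4 (rho = 0.67), Tnrc18 (0.67) and Marf1 (0.65). For Smarcc1 they were Herc1 (0.70), Gm4673 (0.70) and Shank2 (0.69). For Smarca4 they were Cald1 (0.71), Pgap4 (0.67) and Zp2 (0.65), and for Smarca2 Nup205 (0.73), Trip4 (0.67) and Dst (0.66). Between these 4 members rho ran from -0.08 for Smarcc2 with Smarca2 to 0.41 for Smarcc1 with Smarca2. The Smarcb1 row had too few counts to be compared. The libraries share their depth and number of rows counted, so these values are a description.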

How the data were processed

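RNA of 30 E12 Geo-seq libraries was analysed. The authors deposited unnormalised expected counts per gene symbol, and the submitters' processing notes name FastQC, HISAT2, StringTie and the GRCm38 build. The methods name StringTie for expression levels, while the step that gave these counts and the annotation release are not given in the sources used here. The 270 values that were not whole, in 63 genes, were rounded. Total counts per library ranged from 1421918 to 6041021. Rows with more than 10 counts in at least 3 libraries (8337) were tested with the edgeR 4.0.16 quasi-likelihood test (R 4.3.3, TMM), with tissue, dorsal-ventral and proximal-distal position and batch as terms. A second fit held 4 arms of tissue and dorsal-ventral position with batch. Calls needed an adjusted p (Benjamini-Hochberg) below 0.05 together with an absolute log2 fold change above 0.58. SE values were derived from the log2 fold change and its F statistic. Detection was tested with two-sided Fisher's exact tests and ratios of paralogous rows with two-sided permutation tests (100000 resamples, or exact where a group had fewer than 10 values). The alternatives were TMMwsp, DESeq2 1.42.0, other filters, mitochondrial rows left out, other covariates, each batch alone and each library left out. The edgeR step was tested on simulated data. Python 3.11.15 with scipy 1.17.1 and pandas 2.3.3 was used.

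Row positions were taken from GENCODE M21, an annotation of GRCm38. The named genes are the 5 members, other BAF subunit rows called or counted in at least 15 libraries, and for each member counted in at least 10 libraries the 3 rows with the highest Spearman correlation. The members, lists and tests were chosen with earlier results of these data known. The list of widely expressed genes, the displacements and the pairs of rows were chosen after the values were seen. Numbers shared by libraries of different regions come from the library numbers, which fall into 4 series. Libraries of one series deviated from their region means with a median correlation of 0.00425 over 103 pairs, so the numbers were not taken as pairs.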

Additional observations from a re-analysis of the deposited data

Results flagged for a closer look

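Within the regions of 4 libraries, 14 combinations of member and region had values that differed, and in 4 of these 1 library stood far from the other 3. Chance flags about 1 in 20 groups of continuous values, a rate that does not hold for these rows, since the share is 1 whenever 3 of 4 libraries read 0. The gap to the nearest library as a share of the whole range was 1 for the Smarcc1 row in pRPE ventral distal replicate 2 (21.4 CPM against 0 in the others). It was 0.96 for the Smarca2 row in OS ventral middle replicate 3 (881 CPM) and 0.83 for the Smarca2 row in pRPE dorsal proximal replicate 1 (90.9 CPM). It was 0.963 for the Smarcb1 row in pRPE ventral distal replicate 1 (206 CPM).

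The log2 ratio of the Smarca4 to the Smarca2 row differed between tissues in opposite directions in the batches, with the pRPE minus OS difference 9.11 higher in batch B than in batch A (permutation p = 0.00126, adjusted over 4 ratios 0.00504, neither allowing for libraries that share an embryo). With 1 in place of 0.5 added to the counts, a setting chosen after the values were seen, it was 7.95 (permutation p = 0.00157). Whether the batch or the libraries it holds set this difference was not tested.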

How the results depend on the processing

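The count of members called stayed at 0 in each of the 5 comparisons under TMMwsp, both other filters, without mitochondrial rows, with the number of rows counted as a covariate, in each batch alone where it applied, and without any 1 library (lowest 0, highest 0, with dorsal against ventral OS run without each of the 16 OS libraries). DESeq2 was the exception and called 1 member between pRPE and OS and 1 between dorsal and ventral OS, both times Smarcb1, a row at 0 in all OS libraries. Over all rows DESeq2 called 1209, 1160, 552, 667 and 783 for tissue, dorsal-ventral, proximal-distal, batch and OS dorsal-ventral, against 3, 497, 0, 10 and 1 in edgeR. The other settings called 0 to 60, 0 to 835, 0 to 8, 2 to 22 and 0 to 1263. Leaving out 1 library gave 0 to 3, 142 to 652, 0 to 2, 5 to 11 and 0 to 4.

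With the replicate block (the library-number series in place of the batch) 0 members were called in every comparison run, and the adjusted p of Smarcb1 between tissues was 0.169 with the block. Over its other edgeR settings that p lay between 0.0547 without a batch term and 0.292 in batch A alone. In batch B alone its row did not pass the filter.

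The pRPE against OS log2 fold change changed sign for Smarcc1 with the covariate (-2.54) and in batch B alone (-3.98), for Smarca2 in batch B alone (-3.22) and for Smarcc2 in batch A alone (-0.40). Without 1 library it ran from -3.19 to 3.26 for Smarcc1. The dorsal against ventral value turned in 4 of 40 settings each for Smarcc1 (0.11 without a batch term, 3.66 in batch B alone, 0.14 and 1.91 without pRPE ventral distal replicate 2 and pRPE ventral proximal replicate 3) and Smarcc2 (-0.40 in DESeq2, -0.19 with the covariate, -0.16 in batch A alone and -0.09 without OS dorsal proximal replicate 1). Within OS it turned in 2 of 26 for Smarcc1 (5.28 in batch B alone, 0.11 without OS ventral middle replicate 2), 2 for Smarcc2 (-0.02 in DESeq2, -0.38 without OS dorsal proximal replicate 1) and 1 for Smarca2 (0.77 without OS ventral middle replicate 3). The proximal against distal value turned in 15 of 40 settings for Smarcc1 and 3 for Smarca2, and the batch value in 1 of 36 each for Smarcc1, Smarcc2 and Smarca2. The Smarcb1 value turned in 2 of 39, 10 of 25 and 6 of 39 settings for dorsal against ventral, within OS and proximal against distal. The Smarca4 to Smarca2 tissue difference was -3.23 in batch A alone and 5.88 in batch B alone, and 0.71 to 2.33 without any 1 library. Its dorsal minus ventral difference was 2.28 in batch A alone and -1.41 to 0.26 without any 1 library. For Smarcc1 to Smarcc2 the tissue difference was -0.29 in batch B alone and 0.00027 to 0.88 without any 1 library, and the dorsal minus ventral difference 2.09 in batch B alone and -1.05 to -0.18 without any 1 library. In CPM of nuclear rows the mean of the Smarca4 row rose from 78.8 to 139, and the order of pRPE and OS means was kept on each of the 3 scales for all 5 rows. The causes were not tested. Of the values in tested rows, 56.8% were 0, and the regions had 2 to 4 libraries each.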
